A study of Mus musculus with 12 samples.

Results

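The 10 genes described here encode enzymes that make and modify long-chain fatty acids: Acly, Acaca, Fasn, Scd1, Scd2, Elovl1, Elovl5, Elovl6, Fads1 and Fads2. They were taken by gene symbol as enzymes of the pathway, and 10 of the 10 were among the 12960 genes of the count table and among the 10822 genes that passed the filter on low counts. RNA sequencing was performed on bone marrow-derived macrophages (BMDMs), primary cells grown from the marrow of WT mice or of AMPKβ1-/- mice, which lack the β1 subunit of the AMP-activated protein kinase (AMPK), and differentiated in L929 medium as a source of M-CSF. Cells of both genotypes were given either 0.1% DMSO as vehicle or PF-06409577 (PF, 10 μM), an activator selective for AMPK complexes that contain β1, for 6 h, which gave 4 groups with 3 libraries each (WT vehicle, WT PF, AMPKβ1-/- vehicle and AMPKβ1-/- PF). The design addresses how PF acts on these transcripts, and whether it does so without AMPKβ1.

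Fatty acid synthesis starts in the cytosol with citrate, which ATP citrate lyase (Acly) splits to acetyl-CoA. Acetyl-CoA carboxylase 1 (Acaca), whose activity AMPK inhibits by phosphorylation, turns acetyl-CoA into malonyl-CoA, and fatty acid synthase (Fasn) builds palmitate from both. Elongases (Elovl1, Elovl5, Elovl6) then add carbons at the endoplasmic reticulum, stearoyl-CoA desaturases (Scd1, Scd2) introduce the first double bond of monounsaturated fatty acids, and the front-end desaturases Fads1 and Fads2 act on polyunsaturated fatty acids. Transcription of many of these genes is driven by the sterol regulatory element-binding proteins (SREBPs) and by liver X receptors. AMPK acts on these enzymes and their regulators mainly as proteins, so transcript levels and enzyme activity are different readouts, and RNA levels alone were measured here.

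Scd1 and Scd2 are neighbours on chromosome 19 of GRCm38 (GENCODE M21), Scd2 at chr19:44293674-44306864 on the plus strand and Scd1 at chr19:44394455-44407879 on the minus strand, 87.6 kb apart. Their coding sequences were identical at 962 of 1065 aligned bases (90.3%), with a longest identical run of 147 bases. The sequences of both genes are shown because the results below separate this pair, which is only possible where their transcripts differ. In exon 4, 60 coding bases were the same in both, at chr19:44401827-44401886 (minus strand) in Scd1 and at chr19:44299621-44299680 (plus strand) in Scd2, and fragments that lie within such a stretch cannot be assigned to either gene by sequence.
Scd1 and Scd2, exon 4: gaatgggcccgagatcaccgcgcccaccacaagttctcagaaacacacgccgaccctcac
In exon 2, 24 of 60 coding bases differed between chr19:44406647-44406706 (minus strand, Scd1) and chr19:44294967-44295026 (plus strand, Scd2), and these bases are in capitals.
Scd1, exon 2: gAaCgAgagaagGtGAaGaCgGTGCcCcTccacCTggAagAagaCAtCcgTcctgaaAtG
Scd2, exon 2: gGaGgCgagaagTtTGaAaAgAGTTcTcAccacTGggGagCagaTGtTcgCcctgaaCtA

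Over whole transcripts, 4.66% of the 50-base words of Scd1 and 4.01% of those of Scd2 also occurred in another gene, among them each other and Scd4. The same measure was 52.6% for Acaca, because of the predicted gene Gm5182, so that the counts of Acaca depend on how fragments were divided and carry this uncertainty below. It was 4.4% for Elovl6, 0.161% for Fads2 and 0 for the other members. Fads1 (chr19:10182888-10196877, plus strand) and Fads2 (chr19:10062765-10101746, minus strand) also lie on chromosome 19, with 81.1 kb between them, and were identical at 67.9% of aligned coding bases. Acly (chr11:100476353-100528000, minus strand), Acaca (chr11:84129672-84401651, plus strand) and Fasn (chr11:120805846-120824547, minus strand) are on chromosome 11. Elovl1 is at chr4:118428093-118432953, Elovl5 at chr9:77917364-77984519 and Elovl6 at chr3:129532355-129638495, all on the plus strand.

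The libraries held between 8935609 and 14358180 counts. Prkab1, which encodes AMPKβ1, lay between 37.3 and 45.3 CPM (counts relative to a library size scaled by the trimmed mean of M values, TMM) in WT libraries and between 6.05 and 9.42 CPM in AMPKβ1-/- libraries, so the genotypes matched their labels, with some transcript left. All 8 macrophage markers were present, with a summed level of 25200 to 29700 CPM. Single markers moved with the groups. PF in WT lowered 3 of the 8 (Csf1r −0.58, adjusted p = 0.00207, Cd14 −0.43 and Itgam −0.39) and raised 0. Over all tested genes, 8.95% were lower and 6.99% higher with PF in WT. In AMPKβ1-/- against WT with vehicle 4 markers were lower, among them Cd68 (−0.72, adjusted p = 2.7e-05), and 2 higher. There 30% of all tested genes were lower and 29.7% higher, so the marker calls between genotypes were not far from those over all genes. With PF in WT, the 3 of 8 markers that were lower made a larger share than the 8.95% over all genes. The 4 granulocyte markers, the 1 lymphoid marker and the 3 dendritic cell markers in the table summed to at most 0.958, 0.187 and 0.636 CPM. The 5 fibroblast markers summed to 0.923 to 1.89 CPM with WT vehicle, 1.03 to 1.29 with WT PF, 2.02 to 8.66 with AMPKβ1-/- vehicle and 1.58 to 2.12 CPM with AMPKβ1-/- PF. Lipe, the adipocyte marker in the table, which macrophages also express, was at 88.4 to 107, 66.8 to 81.7, 63.7 to 76.7 and 64.2 to 69.2 CPM in the same order of groups. The part of these markers in the results was not tested. The dependence of log2 CPM on GC content also moved with the groups. Its slope per 10 percentage points of GC was 0.72, 0.36 and 0.53 in WT vehicle, 0.37, 0.17 and −0.05 in WT PF, −0.1, −0.36 and −0.34 in AMPKβ1-/- vehicle and −0.51, −0.33 and −0.44 in AMPKβ1-/- PF. Log2 fold changes are therefore also given after the trend with GC content and transcript length was removed from each library ("GC trend removed"). On that scale 4 of the 8 macrophage markers were lower with PF in WT and 0 higher. Over all tested genes, 4.02% were then lower and 3.27% higher, so the markers were lower more often than genes at large. In AMPKβ1-/- against WT with vehicle, 1 marker was lower and 0 higher, beside 20% of all tested genes lower and 14.5% higher. In bulk RNA, fewer cells of a type and less RNA per cell cannot be told apart.

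Per kilobase of transcript (RPKM, mean ± SD, n = 3), Elovl1, which elongates saturated and monounsaturated fatty acids to very long chains, had the highest level in WT vehicle BMDMs, at 94.8 ± 7.39. Fads1 followed at 61.2 ± 3.51 and Acly at 55.3 ± 1.96. Fads2 (14.4 ± 0.807), Fasn (13.6 ± 1.49) and Elovl5 (13.6 ± 0.994) overlapped with their neighbours in this order and could not be ranked among themselves. Below them lay Scd2 (9.41 ± 0.598), Acaca (5.58 ± 0.665), Scd1 (1.76 ± 0.181) and, near the detection limit, Elovl6 (0.12 ± 0.0432). Apart from those 3 genes, no neighbours in the order overlapped in WT vehicle. Scd2 moved from rank 7 in WT vehicle to rank 5 in WT PF, at 15.8 ± 0.784 RPKM, where it overlapped with Elovl5 and Fasn, and was at rank 7 again in both AMPKβ1-/- groups, at 6.06 ± 0.416 and 5.44 ± 0.447. Acacb, the mitochondrial acetyl-CoA carboxylase isoform, was at 0.0871 ± 0.0123 RPKM in WT vehicle, so Acaca held nearly all acetyl-CoA carboxylase transcript of these cells.

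In WT BMDMs, PF raised Scd2 1.67-fold and Elovl5 1.28-fold, and Acly, Acaca and Fasn, at the start of the pathway, did not pass the test. Of the 10 genes, 2 were higher and 0 lower at an adjusted p below 0.05 (edgeR's quasi-likelihood test, Benjamini-Hochberg adjusted over the 10822 genes), where 15.9% of all tested genes were called in either direction, 6.99% higher and 8.95% lower. None also passed a log2 fold change of 0.8, which 1.52% of tested genes did. The 3 PF libraries did not overlap with the 3 vehicle libraries for 5 genes, higher for Scd2, Elovl5 and Elovl6 and lower for Fads1 and Fads2, against 32.2% of all tested genes, 14.2% higher and 18.1% lower. The median log2 fold change of the 10 genes was 0.05, and that of all tested genes was 0.005. After removal of the GC trend 2 genes were also called, but these were Scd2 and Fasn, with Elovl5 at 0.05 (adjusted p = 0.795), and Elovl5 also lost its call without any one of 4 of the 6 WT libraries. The levels of each gene in each library are shown in the plot of CPM by group.

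**Figure D1:**
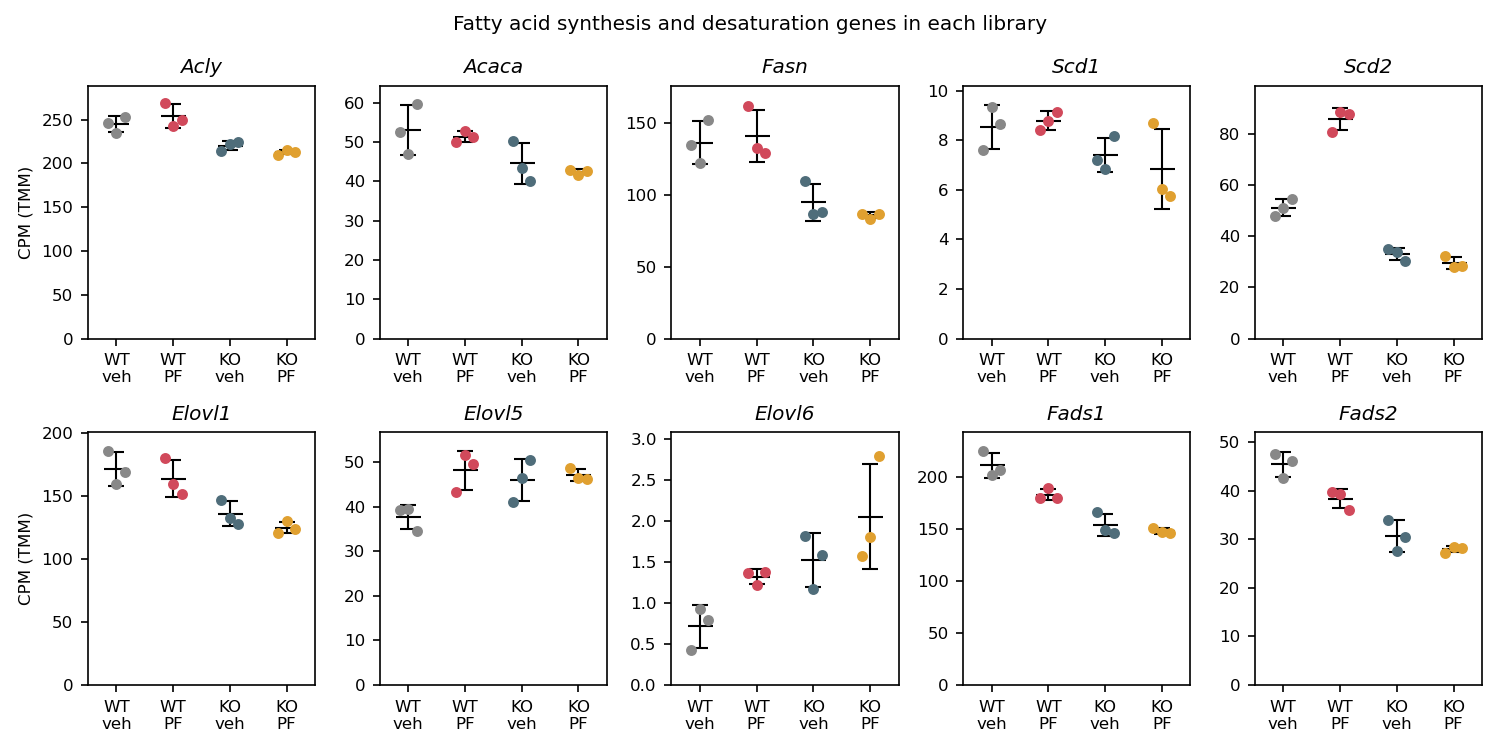
CPM (TMM-scaled, linear axes from 0) of the 10 genes in WT vehicle, WT PF, AMPKβ1-/- vehicle (KO veh) and AMPKβ1-/- PF (KO PF) BMDMs; points are libraries, bars the mean ± SD of 3. Scd2 lies between 48.1 and 54.6 CPM in WT vehicle, between 81 and 88.7 in WT PF and between 28.1 and 34.9 in the AMPKβ1-/- libraries.

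Acly was at 246, 235 and 253 CPM in WT vehicle libraries and at 269, 243 and 249 CPM with PF. Libraries of AMPKβ1-/- BMDMs held 214, 222 and 224 CPM with vehicle and 210, 215 and 213 CPM with PF. The PF and vehicle libraries of each genotype overlapped, and the log2 fold change with PF was 0.05 (SE 0.067, 95% interval −0.09 to 0.19) in WT. Acaca was at 52.6, 47 and 59.6 CPM in WT vehicle and at 49.9, 52.7 and 51.3 CPM in WT PF. With AMPKβ1 absent, Acaca was at 50.3, 43.3 and 40.2 CPM with vehicle and at 43, 41.7 and 42.7 CPM with PF. Here too the libraries with and without PF overlapped in both genotypes, and the log2 fold change in WT was −0.05 (SE 0.1, interval −0.26 to 0.17).

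Fasn was at 135, 122 and 152 CPM in WT vehicle and at 162, 133 and 129 CPM in WT PF. AMPKβ1-/- libraries held 110, 87 and 88.1 CPM with vehicle and 87.1, 83.5 and 86.9 CPM with PF. WT PF library 1 stood above the other PF libraries, and the log2 fold change in WT was 0.05 (SE 0.11, interval −0.18 to 0.28, adjusted p = 0.751). Fasn has the highest GC content of the 10 genes (57.9%, against a median of 50.2% over all tested genes), and with the GC trend removed its change with PF in WT was 0.37 (SE 0.068, adjusted p = 0.00201). The call on Fasn with PF thus differed between these settings. With the trend removed, 7.29% of all genes were called in WT.

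Scd2 responded, and Scd1 did not pass the test, in the same WT libraries. Scd2 was at 48.1, 51.3 and 54.6 CPM in WT vehicle and at 81, 88.7 and 88.1 CPM in WT PF, a log2 fold change of 0.74 (SE 0.089, interval 0.55 to 0.93, adjusted p = 0.000454). In AMPKβ1-/- BMDMs, Scd2 was at 34.9, 33.8 and 30.5 CPM with vehicle and at 32.5, 28.1 and 28.4 CPM with PF. All WT PF libraries lay above all WT vehicle libraries, and all WT libraries above all AMPKβ1-/- libraries. By unadjusted p, Scd2 ranked 9 of the 10822 genes in the WT response. With the GC trend removed the change was 0.76 (adjusted p = 4.13e-06), and its adjusted p was below 0.05 in every alternative setting and with any library left out.

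Scd1, expressed at a lower level, was at 7.59, 9.32 and 8.66 CPM in WT vehicle and at 8.4, 8.79 and 9.15 CPM in WT PF. The AMPKβ1-/- libraries held 7.2, 6.84 and 8.16 CPM with vehicle and 8.71, 6.04 and 5.76 CPM with PF. The groups overlapped, and the log2 fold change with PF in WT was 0.04 (SE 0.17), with an interval of −0.31 to 0.4 that lay below that of Scd2. At 62 to 119 counts a library, smaller changes of Scd1 were not detectable at this depth. The ratio of Scd2 to Scd1 counts, which does not depend on the scaling of the libraries, was 6.34, 5.5 and 6.31 in WT vehicle and 9.64, 10.1 and 9.63 in WT PF. It was 4.85, 4.93 and 3.74 in AMPKβ1-/- vehicle and 3.73, 4.65 and 4.94 in AMPKβ1-/- PF, so that WT PF lay apart and the AMPKβ1-/- groups overlapped each other.

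Elovl1 was at 186, 160 and 169 CPM in WT vehicle and at 180, 160 and 152 CPM in WT PF, and at 147, 133 and 128 CPM in AMPKβ1-/- vehicle and 121, 130 and 124 CPM in AMPKβ1-/- PF. Its log2 fold change with PF in WT was −0.07 (SE 0.086, interval −0.25 to 0.11). Elovl5, which elongates polyunsaturated fatty acids, was at 39.2, 39.4 and 34.5 CPM in WT vehicle and at 43.2, 51.7 and 49.5 CPM in WT PF. All PF libraries of the WT lay above the vehicle libraries (log2 fold change 0.35, SE 0.1, adjusted p = 0.0301). Without AMPKβ1, Elovl5 was at 41.1, 46.5 and 50.5 CPM with vehicle and at 48.7, 46.5 and 46.3 CPM with PF, above all WT vehicle libraries and overlapping with WT PF. Elovl5 is GC-poor (44.8%), and with the GC trend removed its change with PF in WT was 0.05 (adjusted p = 0.795). The adjusted p of Elovl5 also passed 0.05 when a single library was left out, at 0.0628 and 0.104 for vehicle libraries 1 and 3 of the WT and at 0.112 and 0.11 for its PF libraries 2 and 3.

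Elovl6, which elongates palmitate to stearate, was rare: 4, 10 and 8 counts were found in WT vehicle, 16, 13 and 18 in WT PF, 20, 18 and 15 in AMPKβ1-/- vehicle and 18, 23 and 30 in AMPKβ1-/- PF. WT vehicle libraries were the lowest. At these counts the log2 fold change with PF in WT was 0.86 with an interval of 0.07 to 1.65 (SE 0.37, adjusted p = 0.112).

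Fads1, the delta-5 desaturase, was at 225, 202 and 207 CPM in WT vehicle and at 180, 189 and 180 CPM in WT PF. Its level in AMPKβ1-/- BMDMs was 166, 149 and 146 CPM with vehicle and 151, 147 and 146 CPM with PF. WT PF libraries lay below WT vehicle libraries and above all AMPKβ1-/- libraries, with a log2 fold change with PF of −0.21 (SE 0.073, adjusted p = 0.0595). Without WT vehicle library 2, this change of Fads1 was called (adjusted p = 0.0495). Fads2, the delta-6 desaturase, was at 47.6, 42.6 and 46.2 CPM in WT vehicle and at 39.7, 39.4 and 36.1 CPM in WT PF (log2 fold change −0.24, SE 0.094, adjusted p = 0.0839). With 34, 27.6 and 30.5 CPM in AMPKβ1-/- vehicle and 27.3, 28.4 and 28.3 CPM in AMPKβ1-/- PF, Fads2 followed the same order of groups as Fads1. With the GC trend removed, the changes with PF in WT were −0.11 for Fads1 (adjusted p = 0.277) and −0.07 for Fads2 (adjusted p = 0.658). The ratio of Fads1 to Fads2 counts had group means between 4.66 and 5.29.

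**Figure D2:**
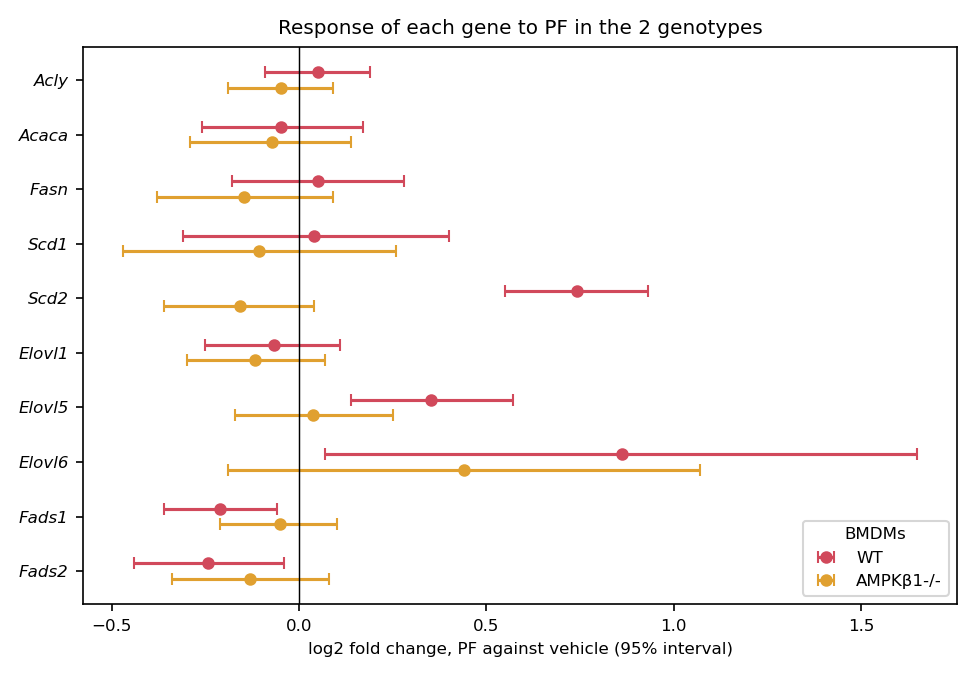
Log2 fold change of each gene with PF against vehicle in WT and AMPKβ1-/- BMDMs, with 95% intervals from the edgeR fit (3 libraries a group). Scd2 is at 0.74 in WT and −0.16 in AMPKβ1-/-, and its intervals do not overlap; the intervals of the other 9 genes do.

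Without AMPKβ1, none of the 10 genes changed detectably with PF. By edgeR's test 0 of 10 were called, against 0.0554% of all tested genes, with adjusted p-values of at least 0.982, and 0 of 10 had an unadjusted p below 0.05, against 4.98% of genes. DESeq2 and limma-voom also called 0. The libraries of PF and vehicle overlapped for all 10, against 14.5% of tested genes that did not overlap. Scd2 was at −0.16 (SE 0.094, interval −0.36 to 0.04), Elovl5 at 0.04 (interval −0.17 to 0.25) and Fasn at −0.15 (interval −0.38 to 0.09). The interval for Scd2 in AMPKβ1-/- BMDMs thus did not include the change seen in WT.

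The test of the difference between the responses of the genotypes (WT minus AMPKβ1-/-) called Scd2 and none of the other 9, where 0.416% of all genes were called. For Scd2 the difference was 0.90 on the log2 scale (SE 0.13, interval 0.63 to 1.18, adjusted p = 0.00811), rank 5 of the 10822 genes by p, and it also passed the log2 threshold of 0.8, as 0.157% of genes did. Its adjusted p stayed below 0.05 in each setting run, with the highest value, 0.0477, without AMPKβ1-/- vehicle library 2. For Elovl5 the difference was 0.32 (SE 0.14, interval 0.02 to 0.61, adjusted p = 0.33), so a response of Elovl5 that depends on AMPKβ1 was not shown. For Fasn it was 0.20 (adjusted p = 0.577), and 0.51 with the GC trend removed (SE 0.098, adjusted p = 0.0122), when 1.66% of all genes were called.

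Without PF, most tested genes differed between AMPKβ1-/- and WT BMDMs, as did most of these 10, more often lower on the TMM scale. Of the 10 genes, 6 were lower and 2 higher in AMPKβ1-/- vehicle than in WT vehicle, where 59.7% of all tested genes were called, 29.7% higher and 30% lower, so the number of calls was not far from that over all genes. The libraries did not overlap for 8 of the 10, against 62.9% of genes. Scd2 was 0.645-fold the WT level (log2 fold change −0.63, SE 0.092, adjusted p = 9.72e-05), Fads2 0.674-fold (−0.57, adjusted p = 0.000217), Fasn 0.696-fold (−0.52, adjusted p = 0.00102), Fads1 0.725-fold (−0.46, adjusted p = 0.00015) and Elovl1 0.791-fold (−0.34, adjusted p = 0.00353). Acaca was 0.842-fold (−0.25, adjusted p = 0.045), Acly did not pass the test (−0.15, adjusted p = 0.0591), and Scd1 did not either (−0.21, interval −0.57 to 0.15). Elovl6 alone of the 10 passed the log2 threshold of 0.8, as did 17.8% of genes. The median log2 fold change of the 10 genes was −0.29, and that of all tested genes −0.03.

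The 2 elongases with the lowest GC content were higher in AMPKβ1-/- vehicle, Elovl6 by 1.04 (SE 0.36, adjusted p = 0.0228) and Elovl5 by 0.29 (SE 0.1, adjusted p = 0.0228). With the GC trend removed, Elovl6 was at 0.24 (adjusted p = 0.676) and Elovl5 was reversed, at −0.205 (adjusted p = 0.0783). Elovl1 then came to −0.06 (adjusted p = 0.501). The lower levels of Scd2 (−0.76), Fasn (−0.49), Fads1 (−0.28) and Fads2 (−0.27) were still called, Acaca was lower by more (−0.57, adjusted p = 9.23e-05), and Scd1 was called (−0.54, adjusted p = 0.0108). Over all genes, 34.5% were called with the trend removed.

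Leaving out AMPKβ1-/- vehicle library 3 left 5 of the 10 genes called in this comparison: Scd2, Fasn, Elovl1, Fads1 and Fads2. Acaca was then at an adjusted p of 0.18, Elovl5 at 0.11 and Elovl6 at 0.0524. Without AMPKβ1-/- vehicle library 2, Acaca was at 0.129 and Elovl5 at 0.0642, and without AMPKβ1-/- vehicle library 1 Elovl6 was at 0.0749. Of the WT vehicle libraries, leaving out library 1 gave 0.0767 for Acaca and 0.0987 for Elovl6, and leaving out library 3 gave 0.205 for Acaca and 0.0905 for Elovl5. Acaca lost its call under each other scaling as well (0.0571 with DESeq2's size factors), without a change of direction. For Scd2, Fasn, Elovl1, Fads1 and Fads2 the adjusted p was at most 0.0207 with any library left out. Elovl1 lost its call when edgeR scaled by library size alone (−0.126, adjusted p = 0.139), and Elovl6 lost its call with DESeq2 (adjusted p = 0.0581).

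**Figure D3:**
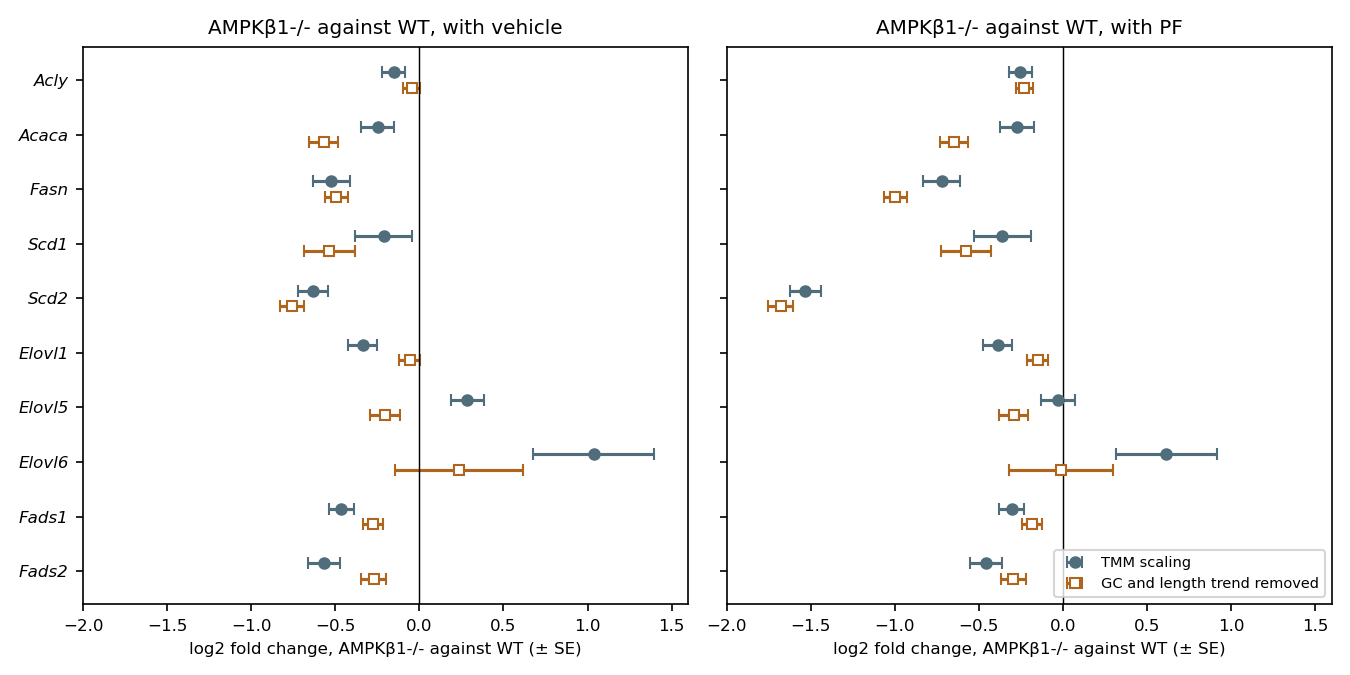
Log2 fold change (± SE) of each gene in AMPKβ1-/- against WT BMDMs, with vehicle (left) and with PF (right), TMM-scaled (filled circles) or after removal of the GC and length trend of each library (open squares). The points of all genes but Elovl5 and Elovl6 lie below 0 in both panels and on both scales, and Elovl5 with vehicle moves from 0.29 to −0.205.

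With PF in both genotypes, 7 of the 10 genes were lower in AMPKβ1-/- BMDMs and 0 higher, where 47.1% of all genes were called, 24.1% higher and 22.9% lower. Scd2 was 0.345-fold the WT level (log2 fold change −1.53, SE 0.092, adjusted p = 6.25e-08), rank 4 of all genes by p, and alone of the 10 passed the log2 threshold of 0.8, as did 14.3% of genes. Fasn followed at 0.607-fold (−0.72, SE 0.11, adjusted p = 0.000144). Fads2 (−0.46), Elovl1 (−0.39), Fads1 (−0.31), Acaca (−0.27, adjusted p = 0.0371) and Acly (−0.25) were lower by smaller amounts, Scd1 was at −0.36 (adjusted p = 0.0881), and Elovl5 was at −0.03 (interval −0.24 to 0.18). The libraries did not overlap for 8 of the 10 genes, the 7 that were called and Elovl6 (0.62, adjusted p = 0.106), against 59.9% of all genes. With the GC trend removed, 8 of the 10 were lower, with Scd2 at −1.68 and Fasn at −0.998. On that scale 37.8% of all genes were called, 21.2% lower and 16.6% higher. Elovl1 then lost its call (−0.15, adjusted p = 0.0606), and Elovl5 (−0.29, adjusted p = 0.0106) and Scd1 (−0.575, adjusted p = 0.00546) were called. Acaca was at an adjusted p of 0.0531 to 0.101 with any library left out. This comparison and the response to PF in WT share the WT PF libraries, so the value of Scd2 here holds both its lower level without AMPKβ1 and its rise with PF in WT.

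Ratios within a library compared the members without scaling, though the GC trend was not removed from them. The ratio of Fasn to Acaca counts was 2.57, 2.6 and 2.55 in WT vehicle and 3.25, 2.53 and 2.51 in WT PF. It was 2.18, 2.01 and 2.19 in AMPKβ1-/- vehicle and 2.02, 2 and 2.04 in AMPKβ1-/- PF, below every WT library. Fasn is richer in GC than Acaca (57.9% and 49.1%), so this ratio is not free of the GC trend. With the trend removed, AMPKβ1-/- against WT with vehicle was −0.49 for Fasn and −0.57 for Acaca. With PF, Fasn was at −0.998 and Acaca at −0.648. The counts of Acaca also depend on how fragments shared with Gm5182 were divided. Summed over the 10 genes, the libraries held 988, 910 and 985 CPM in WT vehicle, 1010, 967 and 945 CPM in WT PF, 805, 750 and 747 CPM in AMPKβ1-/- vehicle and 731, 728 and 725 CPM in AMPKβ1-/- PF. All WT libraries thus lay above all AMPKβ1-/- libraries, PF and vehicle overlapped in WT, and the AMPKβ1-/- PF libraries lay just below those with vehicle. This sum is on the TMM scale, and Acly, Fads1 and Elovl1 hold most of it. With the GC trend removed, AMPKβ1-/- against WT with vehicle was −0.05 for Acly (edgeR adjusted p = 0.517) and −0.06 for Elovl1 (adjusted p = 0.501). Fads1 was at −0.28 (adjusted p = 0.00133).

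**Figure D4:**
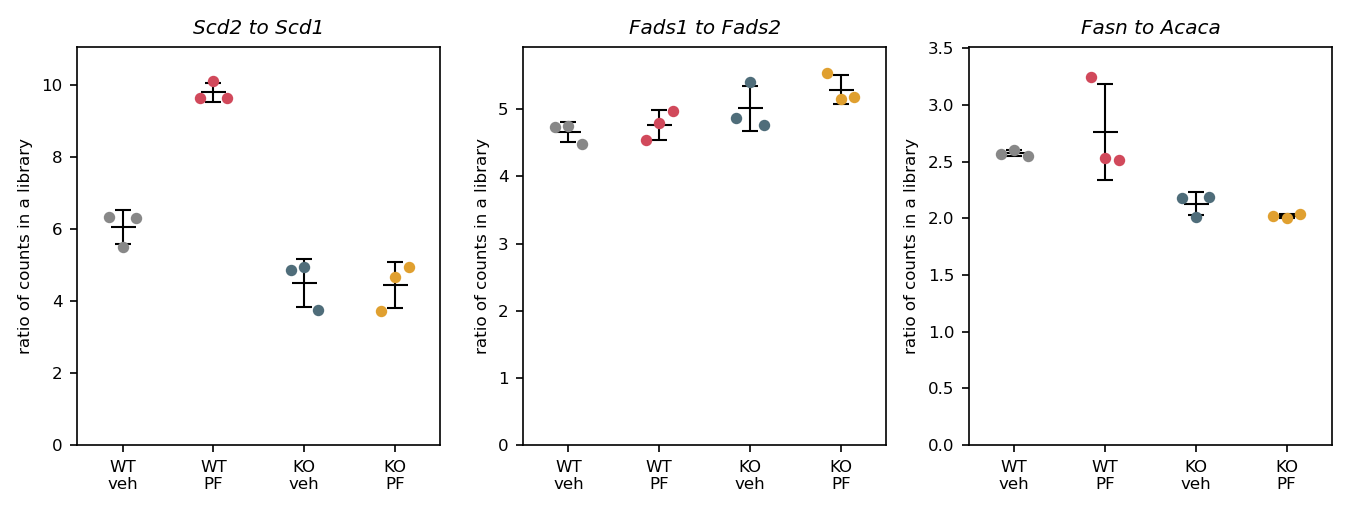
Ratios of counts within each library (points; bars are mean ± SD of 3 libraries; axes start at 0) for Scd2 to Scd1, Fads1 to Fads2 and Fasn to Acaca. Scd2 to Scd1 lies between 9.63 and 10.1 in WT PF and between 3.73 and 6.34 in all other libraries.

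Around the 10 enzymes, 59 genes of the same pathway were followed in 6 lists, of which 53 were in the table and 48 tested. In WT BMDMs PF raised 5 and lowered 5 of the 48, beside 15.9% of all tested genes. Insig1, which holds SREBPs in the endoplasmic reticulum and is itself a known SREBP target, rose from 62.1 ± 9.41 to 123 ± 17.9 CPM (log2 fold change 0.99, SE 0.12, adjusted p = 0.000454), and alone among the 48 passed the log2 threshold of 0.8. Insig1 in AMPKβ1-/- BMDMs was at 61.6 ± 4.22 CPM with vehicle and 58.3 ± 1.17 CPM with PF, and the difference between the genotypes' responses was 1.07 (SE 0.16, adjusted p = 0.0133). Insig1 was the only gene of the 48 called in that test, though its adjusted p was 0.0577 without AMPKβ1-/- PF library 1 and 0.0505 without AMPKβ1-/- vehicle library 2. Mid1ip1, at 0.27 (adjusted p = 0.251), was called as well with the GC trend removed (0.43, adjusted p = 0.015). None of the 48 was called with PF in AMPKβ1-/- BMDMs.

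Among 17 tested genes of transcriptional control, PF in WT raised Insig1 and lowered the liver X receptors Nr1h3 (from 83.1 ± 11.1 to 58.7 ± 5.78 CPM, log2 fold change −0.50, adjusted p = 0.00626) and Nr1h2 (−0.32, adjusted p = 0.0327). Srebf1 was at −0.17 (adjusted p = 0.22) and Srebf2 at −0.13 (adjusted p = 0.256). Of 3 tested partners of acetyl-CoA carboxylase, Mid1ip1, whose product promotes polymerization of the carboxylase, rose from 99.5 ± 2.11 to 129 ± 8.32 CPM (0.37, adjusted p = 0.0057). Of 11 other enzymes of elongation and desaturation, the ketoacyl reductase Hsd17b12 rose (0.48, adjusted p = 0.00791) and the enoyl reductase Tecr fell (−0.35, adjusted p = 0.0269).

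Of 8 genes of carbon and NADPH supply, Idh1 rose with PF in WT (0.40, adjusted p = 0.0359), whereas G6pdx (−0.35, adjusted p = 0.0199) and Pgd (−0.36, adjusted p = 0.025) of the pentose phosphate pathway fell. Of 4 acyl-CoA synthetases, Acsl3 rose (0.73, adjusted p = 0.0197), and of 5 genes of mitochondrial fatty acid synthesis none was called. With the GC trend removed, the calls on Insig1 (0.90), Mid1ip1 (0.57), Nr1h3 (−0.28) and G6pdx (−0.23) remained, and those on Acsl3 (0.35), Hsd17b12 (0.17), Idh1 (0.04), Nr1h2 (−0.07), Pgd (−0.20) and Tecr (−0.19) did not. The calls on 6 of these genes also rested on single libraries. Without the first WT vehicle library, the second WT PF library or the third, an adjusted p above 0.05 was found for Acsl3, Idh1, Nr1h2, G6pdx, Pgd and Tecr, and without the third WT vehicle library for Acsl3, Idh1, Nr1h2 and Pgd. Their highest values, all without the third WT PF library, were 0.0875 for Acsl3, 0.161 for Idh1, 0.176 for Nr1h2, 0.113 for G6pdx, 0.12 for Pgd and 0.14 for Tecr.

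**Figure D5:**
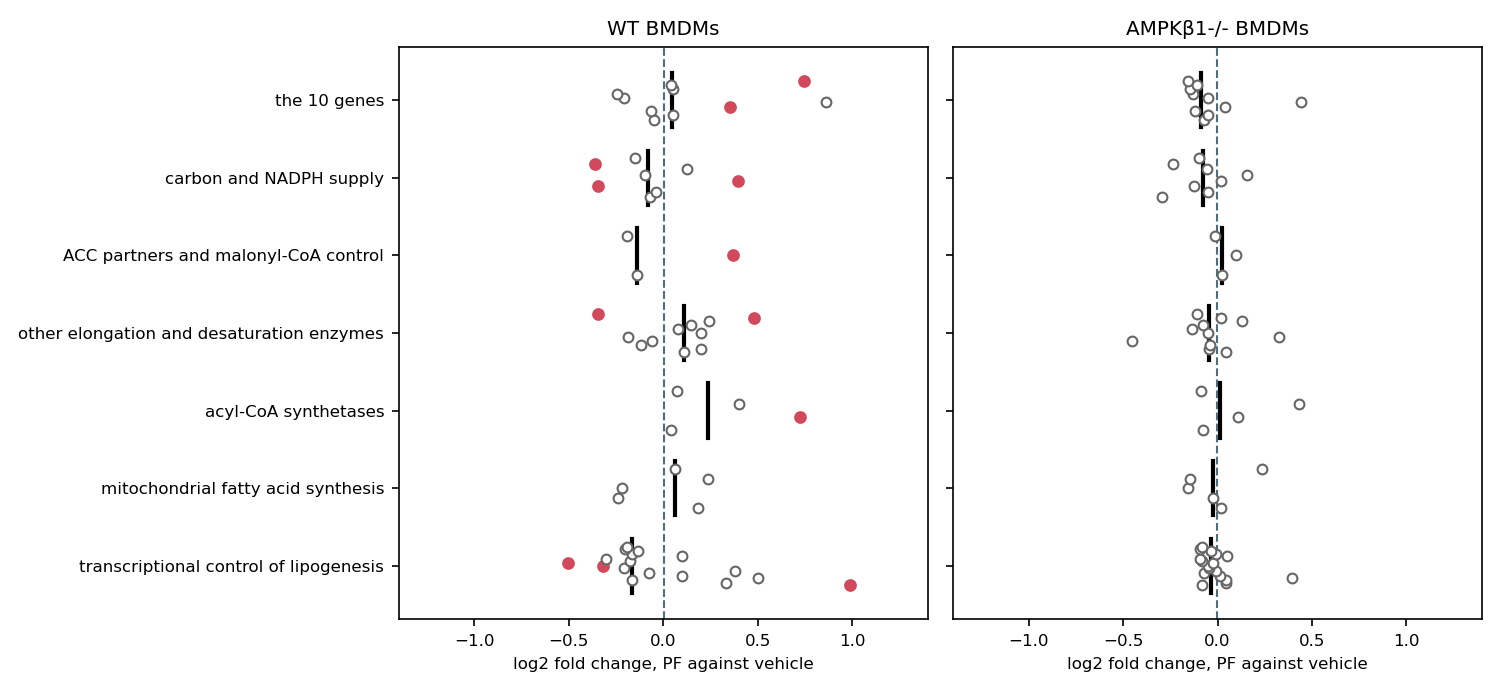
Log2 fold change with PF against vehicle in WT (left) and AMPKβ1-/- (right) BMDMs for the 10 genes and for 6 lists of the same pathway. Filled points passed an adjusted p of 0.05, open points did not, black bars are list medians and the dashed line is the median of all tested genes. In WT, Insig1 at 0.99 and Scd2 at 0.74 are the 2 furthest right of the filled points, and no point is filled in AMPKβ1-/-.

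With vehicle, 12 of the 48 genes were higher and 20 lower in AMPKβ1-/- than in WT BMDMs, again beside 59.7% of all genes. The citrate carrier Slc25a1 (−0.68, adjusted p = 6.57e-05) and citrate synthase Cs (−0.38, adjusted p = 0.000477) were lower and malic enzyme Me1 was higher (0.63, adjusted p = 0.0017). Mid1ip1 (−0.63, adjusted p = 2.68e-05), the malonyl-CoA decarboxylase Mlycd (−0.54, adjusted p = 0.000372) and Tecr (−0.74, adjusted p = 5.05e-05) were lower, as were Cyb5r3 (−0.22, adjusted p = 0.032), Mcat (−0.80, adjusted p = 0.000441) and Mecr (−0.59, adjusted p = 0.000638). Among the regulators, Usf2 (−0.46, adjusted p = 0.000125), Srebf2 (−0.51, adjusted p = 0.000199) and Nr1h2 (−0.55, adjusted p = 0.000238) were lower. Acsl4 (1.44, adjusted p = 0.000204), Acsl1 (0.35, adjusted p = 0.00329), Hacd4 (0.65, adjusted p = 0.0111) and Oxsm (0.56, adjusted p = 0.00396) were higher. With the GC trend removed, Slc25a1, Cs, Mid1ip1, Tecr, Mcat, Srebf2 and Acsl1 were still called, and Me1, Mlycd, Mecr, Usf2, Nr1h2, Acsl4, Hacd4, Oxsm and Cyb5r3 were not, with Hacd4 (−0.07) and Cyb5r3 (0.14) on the other side of 0. Acsl3 (0.39, adjusted p = 0.0861) and Hlcs (0.21, adjusted p = 0.184) did not pass the test.

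Promoters were read from RefSeq (GRCm38.p6) for 7 of the 10 genes, and were not matched for Scd1, Scd2 and Fads1. The 250 bases before each RefSeq start were searched on both strands for a sterol regulatory element (TCACNCCAC), the NF-Y box (CCAAT, with which SREBPs act at many of their targets) and an E-box (CACGTG). Over 32851 mouse promoters of this length, 1.05% held the first, 33.8% the second and 6.02% the third. The element TCACNCCAC was not found in the windows of the 7 genes. Those of Acaca (start at chr11:84195438) and Fads2 (start at chr19:10101503) were not at the GENCODE gene starts given above. The windows before those GENCODE starts were not searched for Acaca and Fads2. A second Elovl1 start (chr4:118429701), also not at the GENCODE start, held 0 matches. Fasn held 3 NF-Y boxes, of which 2 overlap, Elovl5 held 2 and an E-box, and Elovl1 held 1. Fasn and Elovl5 are printed because they hold the most matches and because their response to PF depended on the GC trend, with the matches in capitals. The Fasn window lies at chr11:120824548-120824797 (minus strand, 69.2% GC) and the Elovl5 window at chr9:77917115-77917364 (plus strand, 55.6% GC).
Fasn: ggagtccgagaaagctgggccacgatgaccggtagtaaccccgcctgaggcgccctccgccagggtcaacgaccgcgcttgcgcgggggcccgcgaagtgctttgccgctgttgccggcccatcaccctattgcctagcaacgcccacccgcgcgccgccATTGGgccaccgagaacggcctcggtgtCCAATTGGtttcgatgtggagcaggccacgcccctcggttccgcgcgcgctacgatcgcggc
Elovl5: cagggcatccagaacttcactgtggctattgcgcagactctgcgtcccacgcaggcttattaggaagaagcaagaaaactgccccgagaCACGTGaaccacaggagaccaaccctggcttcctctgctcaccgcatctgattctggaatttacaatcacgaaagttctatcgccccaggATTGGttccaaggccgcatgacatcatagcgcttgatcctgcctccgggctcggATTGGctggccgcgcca
A match of letters is a description of the window and not a measured binding site. Only exact letters were searched, so a window without a match is not shown to lack a site.

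The genes whose log2 CPM ran most like that of Scd2 over the 12 libraries were Fabp5, a fatty acid-binding protein (Pearson's r 0.975), and Tent5c (0.974), and with the GC trend removed Fdft1, the squalene synthase, and Psap (0.989 each). For Fasn they were, with the trend removed, Fdps, the farnesyl diphosphate synthase (0.992), and Socs6 (0.988). These r are descriptions over libraries that share their genotype and treatment, and WT and AMPKβ1-/- libraries lie apart for both genes. On the TMM scale the highest r of the other members ran from 0.85 (Scd1) to 0.993 (Elovl1), so such values were not particular to Scd2 and Fasn. How many genes reach such r was not counted.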

How the data were processed

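Reads of 12 libraries (4 groups of 3) were checked with MultiQC, trimmed with Trim Galore and quantified with Salmon by the authors. As deposited, the table holds unnormalized estimated counts, 1 whole number for each gene symbol and library, which the authors appear to have rounded from Salmon's output. Tool versions, genome build, annotation and the filter that left 12960 genes are not given in the sources used here. Column names gave genotype, treatment and a library number from 1 to 3, not stated to pair libraries. Nothing states that the libraries of a group came from separate animals or cultures, so p-values measure the spread between these libraries, which may be technical. No replicate pair was identical, and counts of replicates differed by 2.19 to 18.5 times the variance that counting alone gives.

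The main test was that of edgeR 4.0.16 under R 4.3.3 (quasi-likelihood test, robust, TMM, filterByExpr by group, 10822 genes) in a single fit of the 4 group means, with 5 contrasts. A gene was called at a Benjamini-Hochberg adjusted p below 0.05 over all tested genes, and the log2 threshold of 0.8 of the study was counted beside it. SE are approximate, as the log2 fold change divided by the root of F. Log2 CPM used a prior count of 2. GC content and the length of the longest protein-coding transcript came from GENCODE M21 (GRCm38), by symbol for 12703 genes and by older symbol for 194, and GC content was known for 99.7% of tested genes. The GC and length trend was removed per library with natural splines (5 degrees of freedom) used as an offset. Alternatives were DESeq2 1.42.0, limma-voom (limma 3.58.1), other scalings and filters, the libraries of a contrast alone, leaving out each library and, added after the data were seen, a block by library number. The fits were tested on simulated data. The members and lists were chosen with earlier results of these data known. Named were all 10 members, listed genes called with PF in WT or in the test between genotypes, at most 3 per list with the smallest p in AMPKβ1-/- against WT with vehicle, and for each member the 2 most alike genes, of which those of Scd2 and, with the GC trend removed, of Fasn are printed; the pair of Fasn on the TMM scale is not reported here.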

Additional observations from a re-analysis of the deposited data

Results flagged for a closer look

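Scd2 stood out because its response to PF differed between the genotypes by a direct test. Its log2 fold change with PF was 0.901 higher in WT than in AMPKβ1-/- BMDMs (SE 0.13, edgeR adjusted p = 0.00811), with all 3 WT PF libraries above all 3 WT vehicle libraries and overlapping libraries in AMPKβ1-/- BMDMs. The slope of log2 CPM with GC content also fell with PF in WT libraries, and the difference for Scd2 was 0.92 with that trend removed (adjusted p = 0.000183).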

How the results depend on the processing

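With PF in WT, 2 members were called, and 0 when a log2 fold change past 0.8 was also required, 1 with the libraries of the contrast alone, and 1 to 3 with a library left out. In AMPKβ1-/- BMDMs 0 members were called in every setting run (0 to 0 with a library left out). The test between genotypes called 1 member, 2 with the GC and length trend removed, and 1 to 1 with a library left out. For AMPKβ1-/- against WT with vehicle, 8 members were called, 1 past the log2 threshold, and 5 to 8 with a library left out. With PF, 7 members were called, 1 past the threshold, 4 with scaling by library size alone, and 6 to 7 with a library left out. Elovl5 in AMPKβ1-/- against WT with vehicle reversed, at −0.205, with the GC and length trend removed. Of 1024 alternative values of single genes, 75 lost the call, 7 gained it, 1 reversed and the others stayed on their side of the threshold. Among values uncalled in both settings, 13 moved by at least the SE of the main fit. Values called in both settings were not checked for such moves, and some moved by more than that SE. With the GC trend removed, Fasn in AMPKβ1-/- against WT with PF went from −0.72 (SE 0.11) to −0.998. Values uncalled in both settings (544) were not held to a direction, and 21 of them differed in sign. The causes were not tested.

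Scaling by library size alone shifted the median log2 fold change of all genes to 0.183 for AMPKβ1-/- against WT with vehicle and to 0.146 with PF, and moved the calls from 3216 higher and 3249 lower to 4296 and 1600, and from 2613 and 2481 to 3444 and 1359. For PF in WT the split moved from 756 and 969 to 1045 and 587. Over all genes, PF in WT called 1725 genes, 789 with the GC trend removed and 419 with the libraries of the contrast alone. It called 346 without WT PF library 3 and 3243 without WT PF library 1, the lowest and highest with a library left out. PF in AMPKβ1-/- BMDMs called 6, and between 0 and 62 in the other settings, leaving out a library aside. The test between genotypes called 45, and 198 with DESeq2 and 180 with the GC trend removed. With a library left out it called between 5 (without AMPKβ1-/- vehicle library 2) and 284 (without WT PF library 1). The shares over all genes given beside the members thus also depend on single libraries. AMPKβ1-/- against WT with vehicle called 6465, and 3734 with the trend removed. DESeq2 gave no adjusted p for Elovl6 in some contrasts. The columns number the libraries of each group 1 to 3, and nothing states that a number marks a shared animal, culture or day. Deviations from the group means correlated between −0.184 and 0.317 for same-numbered libraries, above 0.1 in 6 of 18 pairs. For libraries of different numbers they correlated between −0.388 and 0.324, above 0.1 in 9 of 36 pairs. The ranges overlapped, and the numbers were not taken as pairs. A replicate block by these numbers, added after the data were seen, called 2, 0, 1, 7 and 7 members in the 5 contrasts and ended the call on Acaca in AMPKβ1-/- against WT with vehicle (adjusted p = 0.0519). Over all genes the block called 1983 with PF in WT. Elovl6 (4 to 30 counts a library) and Scd1 (62 to 119) are limited by depth.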
